A study of Mus musculus with 50 samples.

Results

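Transcripts of 10 chemokine ligand genes were followed in microglia, the resident macrophages of the brain, sorted from mice with and without a deletion of the histone deacetylase genes Hdac1 and Hdac2. The genes were taken by name from the deposited count table, and all 10 of 10 were found among its 48526 genes. They are Ccl2, Ccl7, Ccl12, Ccl3, Ccl4 and Ccl6 of the CC family and Cxcl2, Cxcl10, Cxcl14 and Cxcl16 of the CXC family. Each gene passed the filter on low counts in every knockout comparison with 3 exceptions, Cxcl2 and Cxcl14 in the inducible model at 2 weeks and Cxcl2 in the inducible model at 6 weeks.

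Chemokines are small secreted proteins that steer leukocytes along concentration gradients by binding G protein-coupled receptors. Microglia are known for making CC chemokines that attract monocytes and other macrophages, and their levels rise quickly when cells are stimulated or stressed by dissociation. Several of these genes carry promoter sites for NF-kappaB, AP-1 or interferon-activated factors, and histone deacetylases are enzymes that remove acetyl groups from histones at such regulatory regions.

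The study held 50 libraries in 14 groups. Constitutive knockouts (HDAC1/2-loxP/loxP with CX3CR1-Cre) were sampled at birth (P0), at 2 weeks and at 6 weeks, with 3, 2 and 3 libraries, against 4 controls at each age. Inducible knockouts (HDAC1/2-loxP/loxP with CX3CR1-CreERT2) gave 3 libraries from embryonic day 16 (E16) and 4 each from P0, 2 weeks and 6 weeks, against 4, 3, 4 and 4 controls. Controls carried the same loxP alleles and no Cre, so the deletions cannot be told apart from carrying Cre. Cre was driven by the promoter of Cx3cr1, which other macrophages and monocytes also use. The inducible knockouts and their controls were all exposed to 3 mg tamoxifen, mixed with progesterone and injected into the dam on embryonic day 13, whereas constitutive knockouts and their controls were untreated. The model and the tamoxifen exposure therefore cannot be told apart. Ages of 2 and 6 weeks are 14 and 45 days in the labels.

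Library totals ran from 11050277 to 29651179 counts. The targeted genes were checked first. Hdac2 stood at 26.4 to 32.5 CPM in the 8 inducible knockout libraries at 2 and 6 weeks, against 66.1 to 82.2 CPM in their controls, where CPM is the count scaled to a library total of 1000000. The transcripts went against the label in some libraries. Hdac1 was at 35.7 CPM in the library labelled constitutive knockout 68 at P0, against 11.4 to 13.6 CPM in controls, and at 92.2 CPM in the library labelled constitutive knockout 380 at 6 weeks, against 13.4 to 16.6 CPM in controls. Hdac2 was at 316 CPM in the library labelled inducible knockout 1 at E16, against 133 to 165 CPM in controls, and in the library labelled constitutive knockout 89 at 2 weeks it lay among the controls at 70.1 CPM. At P0 Hdac2 was at 191, 124 and 137 CPM in constitutive knockouts, against 126 to 164 CPM in controls, so the genotypes overlapped, and the library labelled knockout 68 lay above all controls. Counts are per gene, so reads outside a deleted exon still count. Results are also given without these libraries where a call depends on them.

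The cells of the constitutive knockouts differed from their controls in marker transcripts. Summed over 15 microglia markers, the constitutive knockouts held 2485 to 5989 CPM at P0, against 25179 to 30214 CPM in controls. At 2 weeks the sums were 18369 and 29249 CPM in the knockouts, against 78256 to 87676 CPM in controls, and at 6 weeks 50963 to 71737 CPM in the knockouts, against 84922 to 93634 CPM in controls. Summed over 14 neutrophil markers, constitutive knockouts held 7794 to 11902 CPM at P0 against 822 to 1771 CPM in controls, 18928 and 53682 CPM at 2 weeks against 464 to 1199 CPM in controls, and 2793 to 5692 CPM at 6 weeks against 923 to 1347 CPM in controls. Of the microglia markers 15 of 15 fell at P0, 13 at 2 weeks and 7 at 6 weeks. Over all tested genes, 41.6%, 42.1% and 12% were called in either direction at these ages, which also holds for the marker counts below. Of the 14 neutrophil markers 13 rose at P0, 13 rose and 1 fell at 2 weeks, and 9 of 10 tested rose at 6 weeks. Sums of 12 monocyte markers were 2126 to 3258 CPM in the constitutive knockouts at P0, against 961 to 1166 CPM in controls, 2064 and 4755 CPM in the constitutive knockouts at 2 weeks, against 17.5 to 74 CPM in controls, and 249 to 992 CPM at 6 weeks, against 39.3 to 144 CPM in controls. Of these 9, 12 and 5 rose at the 3 ages. Sums of 12 border macrophage markers were 1782 to 2710 CPM in the constitutive knockouts at P0, against 2472 to 3593 CPM in controls (1 rose, 8 fell), 2686 and 3911 CPM in the constitutive knockouts at 2 weeks, against 676 to 943 CPM in controls, and 2022 to 2668 CPM at 6 weeks, against 567 to 962 CPM in controls (10 and 8 rose). At P0 all 14 neuron markers, all 12 astrocyte markers and 8 of 8 tested erythroid markers rose too, with neuron sums of 3462 to 4189 CPM in knockouts against 958 to 2063 CPM in controls and erythroid sums of 2191 to 2927 CPM against 588 to 1072 CPM. So did 8 of 11 vascular, 7 of 10 tested lymphocyte (1 fell) and 7 of 11 oligodendrocyte lineage markers (1 fell). No marker of the microglia, neutrophil, monocyte and border macrophage lists was at 0 in a constitutive group except Cd209f, a border macrophage marker, in the knockouts at 6 weeks. In the constitutive knockouts neutrophil and monocyte sums were higher and microglia sums lower at all 3 ages. The median log2 change of the 10 chemokine genes was -1.63 at P0, 2.19 at 2 weeks and 1.24 at 6 weeks. Of these 4 marker lists only the border macrophage median changed sign too, at -1.26, 3.74 and 3.06. The part of the marker values in the chemokine differences given below for the constitutive model was not tested. In bulk libraries fewer cells of a type and less RNA per cell cannot be told apart. At 2 and 6 weeks in the inducible model the microglia sums were 72209 to 87933 CPM in knockouts and 80277 to 87707 CPM in controls, so the genotypes overlapped.

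**Figure D1:**
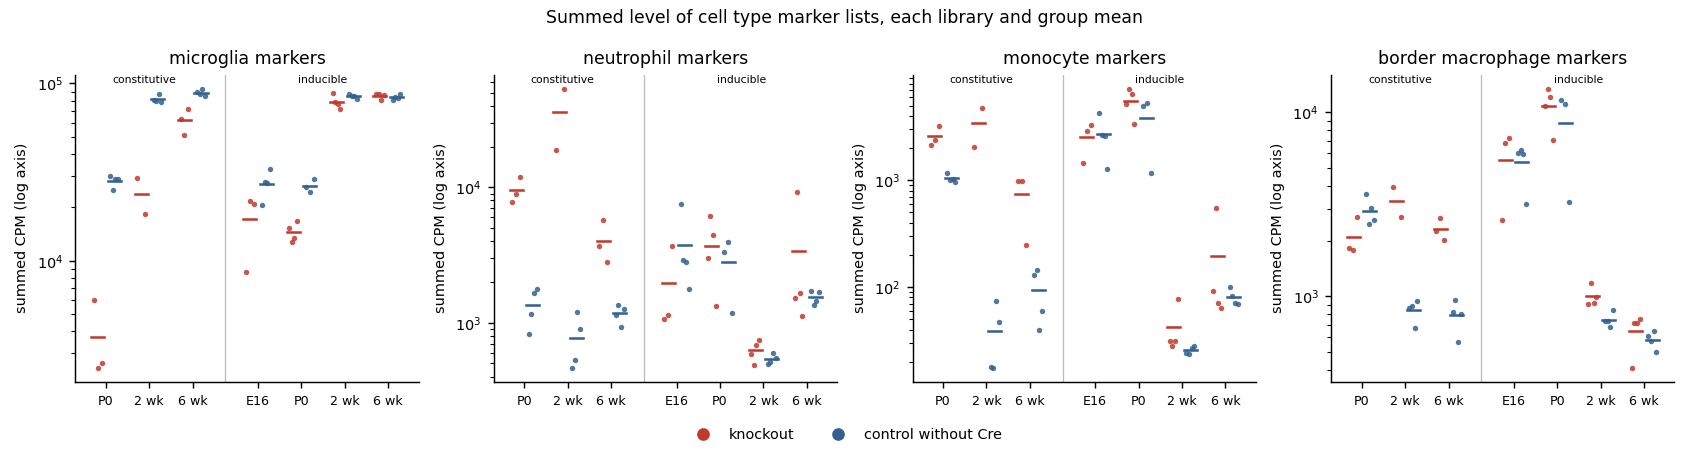
Summed CPM (log axis) of 15 microglia, 14 neutrophil, 12 monocyte and 12 border macrophage markers, each point 1 library and each bar a group mean, with knockouts in red left of controls in blue. In the constitutive model the neutrophil sums of all knockout libraries lie above those of all controls at each age.

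The CC genes lie in 2 neighbouring stretches of mouse chromosome 11 (GRCm38 positions of the GENCODE vM21 annotation). Ccl2 (chr11:82035571-82037453), Ccl7 (chr11:82045712-82047525) and Ccl12 (chr11:82101845-82103400), all on the plus strand, lie within 67.8 kb. Ccl6 (chr11:83587882-83593087, minus strand), Ccl3 (chr11:83647844-83649355, minus strand) and Ccl4 (chr11:83662584-83664683, plus strand) lie within 76.8 kb, and 1.63 Mb spans both stretches. Cxcl16 (chr11:70453983-70459984, minus strand) lies elsewhere on the same chromosome. Cxcl2 (chr5:90903871-90905938, plus strand) and Cxcl10 (chr5:92346638-92348889, minus strand) are on chromosome 5, and Cxcl14 (chr13:56288643-56296551, minus strand) is on chromosome 13. Cxcl16 shares 552 of its 3021 exon bases with Zmynd15 and Cxcl10 shares 133 of its 2252 with Art3, each on the opposite strand, and the library kit named in the labels does not mark strand, which leaves the gene of origin uncertain for reads in the shared bases. The other 8 genes share none.

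RefSeq promoter windows of GRCm38.p6, from 250 bases before the start to 50 after it, were matched for 6 of the 10 genes (Ccl3, Ccl6, Ccl12, Cxcl2, Cxcl10 and Cxcl14). Shown are the 3 that hold a searched motif, among them the genes with the 2 largest increases in the constitutive model. Capitals mark the kappa-B consensus in Cxcl2 (chr5:90903649-90903948, plus strand), the interferon response motif (GAAA, any 2 bases, GAAA), 2 kappa-B sites and the TGANTCA AP-1 motif in Cxcl10 (chr5:92348840-92349139, minus strand), and the TTCNNNGAA STAT motif and the interferon response motif in Cxcl14 (chr13:56296502-56296801, minus strand).
Cxcl2: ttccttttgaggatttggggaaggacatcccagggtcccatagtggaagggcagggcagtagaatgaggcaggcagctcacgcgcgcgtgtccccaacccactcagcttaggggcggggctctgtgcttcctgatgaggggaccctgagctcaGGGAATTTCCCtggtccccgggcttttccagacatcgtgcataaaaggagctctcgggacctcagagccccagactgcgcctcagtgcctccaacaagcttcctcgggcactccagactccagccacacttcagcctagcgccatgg
Cxcl10: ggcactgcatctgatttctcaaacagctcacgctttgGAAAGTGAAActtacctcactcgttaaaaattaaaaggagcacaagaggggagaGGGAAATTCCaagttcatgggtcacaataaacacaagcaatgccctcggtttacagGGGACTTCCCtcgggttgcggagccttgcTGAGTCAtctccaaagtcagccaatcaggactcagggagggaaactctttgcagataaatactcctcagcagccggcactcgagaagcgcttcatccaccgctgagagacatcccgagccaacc
Cxcl14: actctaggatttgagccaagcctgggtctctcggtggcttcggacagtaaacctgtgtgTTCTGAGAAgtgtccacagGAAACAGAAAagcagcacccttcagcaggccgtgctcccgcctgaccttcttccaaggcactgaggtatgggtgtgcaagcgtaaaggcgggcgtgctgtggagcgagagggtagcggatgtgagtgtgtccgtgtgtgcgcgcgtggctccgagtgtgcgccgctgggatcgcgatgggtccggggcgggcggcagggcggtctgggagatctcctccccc
Both strands were searched. The Cxcl2 match is a pair of overlapping kappa-B sites that begin at positions -97 and -96 from the start, and those of Cxcl10 begin at -159 and -103. The Cxcl10 interferon response motif begins at -213 and its AP-1 motif at -74, while the Cxcl14 STAT motif begins at -191 and its interferon response motif at -172. Of all 32851 windows in the table, 4.51% held the kappa-B consensus, 7.81% TGANTCA, 8.30% TTCNNNGAA and 3.44% the interferon response motif. The windows of Ccl3, Ccl6 and Ccl12 held none of the 4 motifs, which says only that these letters are not in that window.

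Before any deletion, the 10 genes differed widely in level. Per kilobase of exon, Ccl12 led in the controls of the constitutive model at all 3 ages, with group means of 225 CPM per kilobase at P0, 144 at 2 weeks and 155 at 6 weeks. Ccl6 and Ccl3 followed, with 150 and 151 CPM per kilobase at P0, 81.8 and 46.7 at 2 weeks, and 120 and 96.1 at 6 weeks. Cxcl16 stood at 8.28, 9.23 and 23.9 CPM per kilobase at these ages. Cxcl10, Cxcl2 and Cxcl14 were the lowest, and at 2 weeks they were at 0.711, 0.0662 and 0.0553 CPM per kilobase. In the inducible model's controls Ccl6 led at E16 with 192 CPM per kilobase, Ccl3 at P0 with 204, and Ccl12 at 2 and 6 weeks with 160 and 232. The lead of Ccl3 at P0 rested on control 56, at 349 CPM per kilobase. In controls 54 and 55 Ccl3 was at 120 and 143, below Ccl12 (146 and 182) and Ccl6 (159 and 163).

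**Figure D2:**
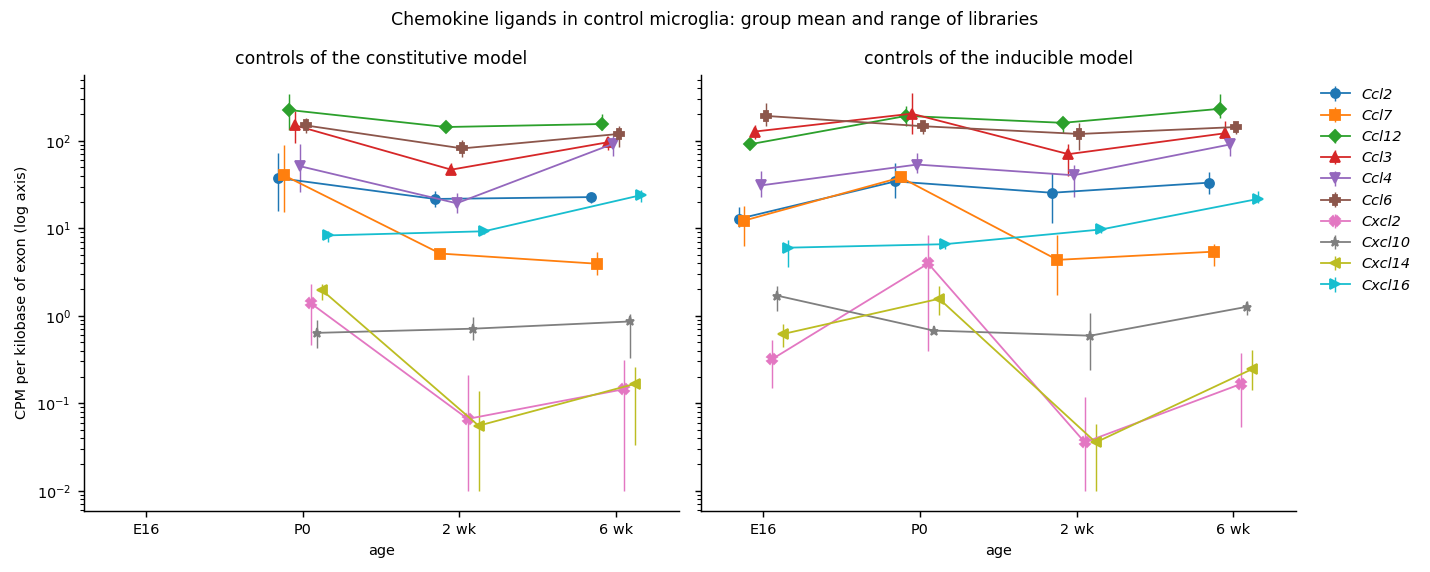
CPM per kilobase of exon (log axis) of the 10 genes in control microglia by age, as group mean with the range of the libraries, for the constitutive model (left) and the inducible model (right). Values of 0 are drawn at 0.01. Cxcl2 and Cxcl14 lie below 0.1 CPM per kilobase at 2 weeks in both models, and Cxcl16 reaches 23.9 and 21.6 CPM per kilobase at 6 weeks.

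In the constitutive model's controls 6 of 10 genes fell and 1 rose at 2 weeks relative to P0, where 63.3% of 16346 tested genes were called at an adjusted p under 0.05 (26.7% higher, 36.6% lower). In the inducible model's controls 4 fell and 1 rose, against 54.7% of 16321 genes (21.9% higher, 32.7% lower). Both shares of the 10 genes lay near those of all genes. Cxcl2, which draws neutrophils through CXCR2, had 0.0508, 0.0576, 0.439 and 0 CPM in the constitutive model's controls at 2 weeks, against 3.61, 0.945, 4.78 and 2.09 CPM at P0, so the ages did not overlap (log2 change -4.02 ± 0.79, adjusted p = 0.000502). Cxcl14 fell with it, to 0 to 0.251 CPM at 2 weeks against 2.78 to 4.22 CPM at P0 (log2 change -4.69 ± 0.65, adjusted p = 2.14e-05). These 2-week groups held 9 counts of Cxcl2 and 7 of Cxcl14 over 4 libraries. In the inducible model's controls the log2 changes were -6.53 ± 1.15 for Cxcl2 and -5.06 ± 0.67 for Cxcl14, with 5 counts of each gene at 2 weeks. In both sets of controls these genes passed the filter only through P0, so they could only be called lower. Ccl7 fell to 3.66 to 4.53 CPM at 2 weeks, against 12.3 to 71.5 CPM at P0, in the constitutive model's controls, and to 1.37 to 6.70 CPM, against 29.3 to 31.7 CPM, in those of the inducible model. Ccl3 fell in both sets, by 1.41 and 1.31 on the log2 scale. The second of these calls was lost without any of 4 single libraries (highest adjusted p = 0.0897). Ccl4 (log2 change -1.13 ± 0.39) and Ccl6 (-0.58 ± 0.15) fell in the constitutive model's controls, and the Ccl4 call was also lost without any of 4 single libraries (highest adjusted p = 0.0695). Cxcl16 rose in both, by log2 0.44 ± 0.14 and 0.77 ± 0.15, and the first of these calls was lost without TMM scaling and in the fit over all 14 groups.

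At 6 weeks relative to 2 weeks, 3 of 8 tested genes rose in the constitutive model's controls, against 17.7% of 13892 genes (8.8% higher), and 2 of 8 rose in those of the inducible model, against 17.1% of 14025 genes (8.13% higher). Cxcl16 was at 82.3, 60.5, 79.9 and 65.7 CPM in the constitutive model's controls at 6 weeks, against 26.0, 27.6, 29.9 and 28.0 CPM at 2 weeks, with no overlap (log2 change 1.34 ± 0.13, adjusted p = 5.99e-06). The inducible model's controls gave 1.09 ± 0.12. Ccl4 rose by log2 2.23 ± 0.21 and 1.10 ± 0.23 in the 2 sets of controls, and Ccl3 by 1.00 ± 0.14 in the constitutive model's controls only by this test, with 0.72 ± 0.26 (adjusted p = 0.0953) in those of the inducible model. The difference between the models in these age steps was not tested. The Ccl3 call and the inducible model's Ccl4 call were lost in the fit over all 14 groups. Between E16 and P0 none of the 10 genes was called in the inducible model's controls, where edgeR called 0.058% of 17251 genes and 1875 (10.9%) had an unadjusted p under 0.05, among them 7 of the 10, and DESeq2 called 5 of the 10. The lowest adjusted p was that of Ccl12, at 78.6 to 134 CPM at P0 against 43.5 to 57.2 CPM at E16 (log2 change 1.08 ± 0.17, adjusted p = 0.0682). Neighbouring age steps share a group of controls.

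**Figure D3:**
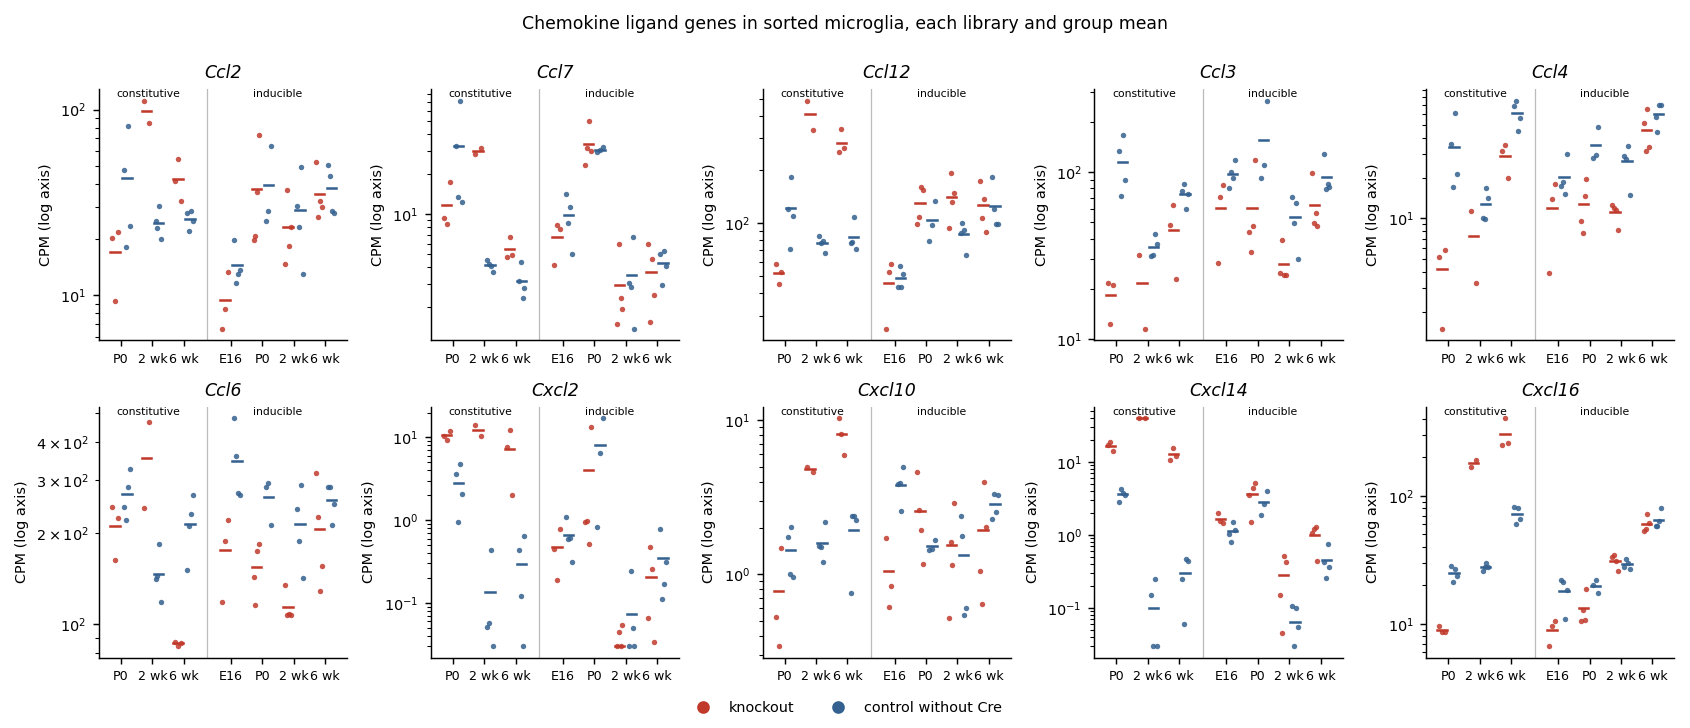
CPM (log axis) of the 10 genes in all 50 libraries, with knockouts in red left of controls in blue, bars as group means, and values of 0 drawn at 0.03. Cxcl14 lies at 39.2 and 39.8 CPM in the constitutive knockouts at 2 weeks, and at 0 to 0.251 CPM in their controls.

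In the constitutive model the direction of the chemokine changes differed with age. At P0 7 of the 10 genes fell and 2 rose in the knockouts, and 41.6% of the 18411 genes tested were called (21.4% higher and 20.2% lower). The median log2 change of the 10 was -1.63, against 0.04 for all tested genes. At 2 weeks 8 of 10 rose and none fell, and 42.1% of 15017 genes were called (24.4% higher, 17.8% lower). The median was 2.19, against 0.00 over all genes. At 6 weeks 6 of 10 rose and 2 fell, and 12% of 14428 genes were called (6.76% higher, 5.24% lower), with a median of 1.24 against -0.01. Cxcl2 and Cxcl14 passed the filter at 2 and 6 weeks only through the knockouts, so they could only be called higher. Their controls held 9 and 7 counts at 2 weeks and 25 and 28 counts at 6 weeks. The counts given here include both genes. In CPM, 4 genes lay wholly below and 2 wholly above the controls at P0 (52.1% of genes did not overlap, 39.1% above and 13% below), 8 above at 2 weeks (56.9%, 31.5% above), and 7 above and 2 below at 6 weeks (22.7%, 13.8% above and 8.9% below).

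Fitted changes are relative to TMM scaling, which at P0 puts a fitted change 0.36 (log2) below the ratio of CPM, because the scaling factors of the knockouts were higher than those of the controls by that amount. Without TMM 6 of the 10 genes were called at P0 (Ccl2, Ccl6 and Ccl7 were not), and the calls over all genes were 6427 higher and 2037 lower, in place of 3942 higher and 3726 lower. The median of all genes then stood at 0.40, in place of 0.04. Every direction of the 10 genes in this comparison was kept under all scalings tried.

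**Figure D4:**
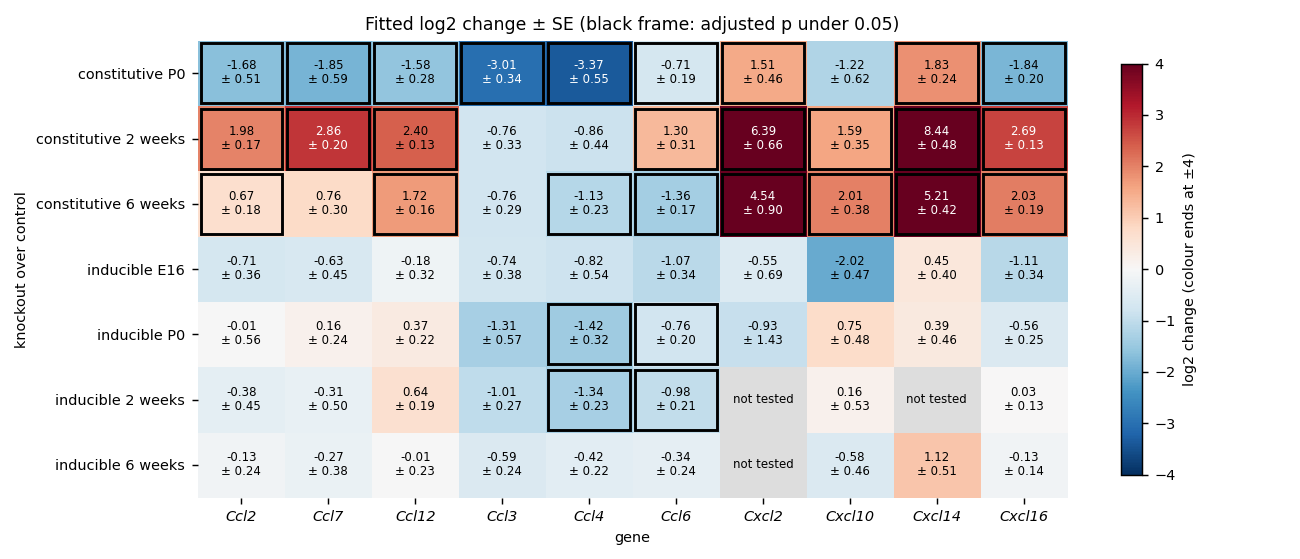
Fitted log2 change ± SE of knockout over control for the 10 genes (columns) in the 7 knockout comparisons (rows), with red for higher, blue for lower and a black frame for an adjusted p under 0.05. Colour ends at ±4. Frames fill 9 of 10 cells at constitutive P0, and the inducible rows hold frames for Ccl4 and Ccl6 alone, at P0 and 2 weeks.

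Ccl2, Ccl7 and Ccl12 are monocyte attractants and ligands of CCR2, and all 3 were lower in constitutive knockouts at P0. At P0 Ccl12 was at 58.7, 45.2 and 52.6 CPM in knockouts, against 120, 71.2, 182 and 109 CPM in controls. All 3 knockout libraries were below all controls (log2 change -1.58 ± 0.28, adjusted p = 0.00126). Ccl2 had 20.3, 9.34 and 21.8 CPM in knockouts, against 47.5, 18.1, 81.5 and 23.6 CPM in controls, and the groups overlapped (log2 change -1.68 ± 0.51, adjusted p = 0.0203). Ccl7 had 9.30, 8.38 and 17.4 CPM in knockouts, against 32.4, 13.4, 71.5 and 12.3 CPM in controls, and the groups overlapped too (log2 change -1.85 ± 0.59, adjusted p = 0.0264). Control library 71 was the highest for all 3 genes. Both overlapping calls were lost when no filter on low counts was used. The Ccl2 call was lost without any of 3 single libraries, control 69 or 71 or knockout 73 (highest adjusted p = 0.0806). The Ccl7 call was lost without any of 4, among them the library labelled knockout 68 (adjusted p = 0.0808 without it).

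At 2 weeks the same 3 genes were higher in the knockouts. Ccl12 was at 491 and 335 CPM in knockouts, against 83.9, 77.5, 79.0 and 67.9 CPM in controls (5.29-fold, log2 change 2.40 ± 0.13, adjusted p = 2.97e-06). Ccl2 was at 112 and 84.7 CPM, against 25.3, 22.9, 30.3 and 20.0 CPM in controls (3.95-fold, adjusted p = 3.1e-05). Ccl7 was at 28.4 and 31.2 CPM, against 4.53, 4.20, 4.08 and 3.66 CPM in controls (7.24-fold, adjusted p = 9.06e-06). None of these groups overlapped, and the calls held with each library left out in turn. Both knockout levels of Ccl7 at 2 weeks lay within the range of control libraries at P0, 12.3 to 71.5 CPM.

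At 6 weeks Ccl12 and Ccl2 were higher in the knockouts and Ccl7 did not pass. Ccl12 was at 250, 337 and 265 CPM in knockouts, against 77.1, 77.6, 108 and 71.2 CPM in controls (3.29-fold, log2 change 1.72 ± 0.16, adjusted p = 4.63e-05). Ccl2 was at 41.1, 54 and 32.3 CPM, against 27.7, 22.1, 28.3 and 25.3 CPM in controls (log2 change 0.67 ± 0.18, adjusted p = 0.0298), without overlap. That call was lost without any of 5 of the 7 libraries, with adjusted p up to 0.166, the value without the library labelled knockout 380, and in the fit over all 14 groups. Ccl7, at 4.77, 6.75 and 4.94 CPM against 2.34 to 4.34 CPM in controls, had no overlap either (log2 change 0.76 ± 0.30, adjusted p = 0.138).

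None of the 3 was called in the inducible model at any age. At 2 weeks Ccl12 was at 93.1, 192, 130 and 148 CPM in inducible knockouts, against 88.1, 99.4, 90.6 and 66.2 CPM in controls, overlapping in 1 knockout library (log2 change 0.64 ± 0.19, adjusted p = 0.13). DESeq2, the fit without a filter and the fit without knockout 6 called this difference. Ccl2 had 14.7 to 36.8 CPM in inducible knockouts and 13.1 to 49 CPM in controls at 2 weeks, and 26.5 to 52.0 CPM in knockouts and 27.7 to 50.6 CPM in controls at 6 weeks. Ccl7 had 1.49 to 5.93 CPM in knockouts and 1.37 to 6.70 CPM in controls at 2 weeks. At P0 Ccl7 was at 23.5 to 50.3 CPM in knockouts and 29.3 to 31.7 CPM in controls (log2 change 0.16 ± 0.24, adjusted p = 0.707).

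Ccl3 and Ccl4, inflammatory chemokines that attract monocytes and lymphocytes, were lower in constitutive knockouts at P0. Ccl3 was at 21.8, 12.4 and 21 CPM, against 133, 72.1, 166 and 89.8 CPM in controls (8.07-fold lower, log2 change -3.01 ± 0.34, adjusted p = 6.75e-05). Ccl4 was at 5.18, 1.5 and 5.85 CPM in knockouts, against 35.6, 17.0, 60.9 and 21.6 CPM in controls (10.3-fold lower, log2 change -3.37 ± 0.55, adjusted p = 0.000734). For both genes every knockout library was below every control, and both calls held under each library left out and each other setting.

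At 2 weeks Ccl3 and Ccl4 were the exceptions to the increase. Ccl3 was at 32.1 and 11.5 CPM in constitutive knockouts, against 31.6, 31.8, 42.6 and 37.3 CPM in controls (log2 change -0.76 ± 0.33, adjusted p = 0.0936), a difference that DESeq2 called. Ccl4 was at 11.4 and 3.27 CPM, against 9.97, 9.96, 16.9 and 14.1 CPM in controls (log2 change -0.86 ± 0.44, adjusted p = 0.151). The 2 knockout libraries stood apart for both genes. Knockout 80 lay within the range of the controls and knockout 89, whose neutrophil marker sum was 53682 CPM against 18928 CPM in knockout 80, lay below it. Without knockout 80 the changes were -1.54 (adjusted p = 0.000198) for Ccl3 and -1.86 (adjusted p = 0.0019) for Ccl4, and without knockout 89 they were -0.26 for each gene (adjusted p = 0.39 and 0.579). At 6 weeks Ccl4 was at 31.9, 35 and 19.8 CPM in constitutive knockouts, against 68.4, 75.6, 44.7 and 55.6 CPM in controls, with no overlap (log2 change -1.13 ± 0.23, adjusted p = 0.008), a call lost in the fit over all 14 groups. Ccl3 was at 48.1, 63.2 and 23.0 CPM, against 76.4, 84.8, 59.9 and 73.3 CPM in controls (log2 change -0.76 ± 0.29, adjusted p = 0.147). It passed only when the library labelled knockout 380 was left out (-1.10, adjusted p = 0.0335) and under DESeq2.

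Ccl4 was also lower in inducible knockouts at P0 and 2 weeks. At P0 Ccl4 was at 9.54, 7.73, 14.5 and 19.7 CPM in inducible knockouts, against 28.0, 29.8 and 48.1 CPM in controls, with no overlap (log2 change -1.42 ± 0.32, adjusted p = 0.0197). The call was lost without knockout 48 or control 56 (highest adjusted p = 0.069). At 2 weeks Ccl4 was at 12.6, 12, 11.5 and 8.16 CPM in inducible knockouts, against 29.2, 27.6, 34.8 and 14.9 CPM in controls, again with no overlap (log2 change -1.34 ± 0.23, adjusted p = 0.01). This call held with each library left out, and it was lost when all 14 groups were fitted together. At 6 weeks the groups overlapped, with 51.4, 31.8, 65.6 and 34.3 CPM in inducible knockouts and 56.5, 44.0, 69.9 and 69.5 CPM in controls (log2 change -0.42 ± 0.22, adjusted p = 0.999). At E16 it was at 3.89, 14.0 and 18.0 CPM in inducible knockouts, against 15.1 to 30.1 CPM in controls (log2 change -0.82 ± 0.54, adjusted p = 0.562), and the lowest of these was the library labelled knockout 1.

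Ccl3 had negative but uncalled changes at all 4 inducible ages. At P0 Ccl3 was at 43.9, 33.2, 47.6 and 118 CPM in inducible knockouts, against 92.1, 109 and 267 CPM in controls (log2 change -1.31 ± 0.57, adjusted p = 0.197). Knockout 57 was the library that overlapped the controls, and without it the change was -1.90 (adjusted p = 0.0188). Control 56, the highest control at 267 CPM, stayed in that fit. At 2 weeks Ccl3 was at 24.8, 39.2, 24.1 and 24.1 CPM in knockouts, against 70.4, 49.8, 65.2 and 30.1 CPM in controls (log2 change -1.01 ± 0.27, adjusted p = 0.114), a difference that DESeq2, the fit without a filter and the fit without control 4 called. At 6 weeks the change was -0.59 ± 0.24 (adjusted p = 0.999), with 47.7 to 98.8 CPM in knockouts and 78.8 to 128 CPM in controls.

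Ccl6, a mouse CC chemokine that binds CCR1, had a change whose sign differed between ages in the constitutive model. At P0 Ccl6 was at 244, 162 and 225 CPM in constitutive knockouts, against 245, 221, 285 and 326 CPM in controls, and the groups overlapped (log2 change -0.71 ± 0.19, adjusted p = 0.0112). This call was lost without TMM and in the fit over all 14 groups. At 2 weeks Ccl6 was higher, at 242 and 467 CPM in knockouts, against 140, 144, 184 and 118 CPM in controls (log2 change 1.30 ± 0.31, adjusted p = 0.0123). The higher value was that of knockout 89, and without that library the change was 0.62 (adjusted p = 0.0434). The call was lost when no filter on low counts was used. At 6 weeks Ccl6 was lower, at 87.4, 84.4 and 86.6 CPM in knockouts, against 150, 211, 231 and 267 CPM in controls (2.57-fold lower, log2 change -1.36 ± 0.17, adjusted p = 0.00026). The knockouts at 6 weeks had the lowest group mean of this gene in the series, 86.1 ± 1.59 CPM (SD, n = 3).

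Ccl6 was also lower in inducible knockouts, at P0 and 2 weeks. At P0 Ccl6 was at 143, 115, 175 and 184 CPM in inducible knockouts, against 285, 293 and 212 CPM in controls (log2 change -0.76 ± 0.20, adjusted p = 0.034), and the call was lost without any of 4 single libraries (highest adjusted p = 0.125). At 2 weeks Ccl6 was at 134, 107, 108 and 107 CPM in inducible knockouts, against 241, 188, 288 and 142 CPM in controls (log2 change -0.98 ± 0.21, adjusted p = 0.0493). Neither age had overlap between genotypes. The 2-week value lay at the threshold, and the call was lost without any of 6 of the 8 libraries (highest adjusted p = 0.155), without TMM, with DESeq2 size factors and in the fit over all groups. At E16 it was at 119, 188 and 220 CPM in knockouts, against 481, 361, 272 and 267 CPM in controls, with no overlap but no call (log2 change -1.07 ± 0.34, adjusted p = 0.256). At 6 weeks knockouts had 315, 226, 129 and 156 CPM and controls 285, 284, 212 and 250 CPM (log2 change -0.34 ± 0.24, adjusted p = 0.999).

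Cxcl2, the neutrophil attractant, was higher in constitutive knockouts at every age. At P0 Cxcl2 was at 10.4, 9.41 and 12 CPM in knockouts, against 3.61, 0.945, 4.78 and 2.09 CPM in controls, with no overlap (log2 change 1.51 ± 0.46, adjusted p = 0.0209). The call was lost without control 74 or knockout 76 (highest adjusted p = 0.072), and in the fit over all groups. At 2 weeks Cxcl2 was at 14.2 and 10.4 CPM in knockouts, with 484 counts in the 2 libraries, against 9 counts in the 4 controls (log2 change 6.39 ± 0.66, adjusted p = 8.85e-05). The size of that fold rests on the 9 counts. At 2 and 6 weeks Cxcl2 passed the filter only through the knockouts, so it could only be called higher, and its 6-week controls held 25 counts. At 6 weeks Cxcl2 was at 7.64, 12.4 and 2.02 CPM in knockouts, against 0.438, 0.122, 0 and 0.639 CPM in controls (log2 change 4.54 ± 0.90, adjusted p = 0.0112), and this call was lost when no filter on low counts was used. The knockout with 2.02 CPM also had the lowest neutrophil and monocyte marker sums of the 3, at 2793 and 249 CPM, against 3656 and 5692 CPM and 986 and 992 CPM in the other knockouts. At 2 weeks the order was the other way. Knockout 80, with 14.2 CPM of Cxcl2, had neutrophil and monocyte sums of 18928 and 2064 CPM. Knockout 89, with 10.4 CPM, had 53682 and 4755 CPM. The part of these sums in the Cxcl2 values was not tested.

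The inducible model showed no call for Cxcl2. At P0 Cxcl2 was at 0.954, 0.984, 0.513 and 13.5 CPM in inducible knockouts, against 0.825, 6.5 and 17.2 CPM in controls (log2 change -0.93 ± 1.43, adjusted p = 0.728). The libraries of each genotype spread over more than 10 times their lowest value, and without knockout 57 the change was -3.28 (adjusted p = 0.048). Control 56, the highest control at 17.2 CPM, stayed in that fit. Sums of 21 immediate early genes at P0 reached 6950 CPM in the inducible knockouts (median 1263) and 7386 CPM in their controls (median 2475). The part of these sums in the Cxcl2 values was not tested. At 2 weeks the inducible knockouts held 2 counts over 4 libraries and the controls 5 counts, and at 6 weeks 17 and 23 counts. The gene was not tested at these ages. At E16 knockouts had 0.189 to 0.793 CPM and controls 0.311 to 1.11 CPM.

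Cxcl14, a chemokine made in many resting tissues and whose receptor is less well settled, had the largest fitted increase of the 10 genes at 2 and 6 weeks. In constitutive knockouts at P0 it was at 16.8, 18.4 and 13.9 CPM, against 2.78, 4.22, 3.76 and 3.54 CPM in controls (3.57-fold, log2 change 1.83 ± 0.24, adjusted p = 0.000193). At 2 weeks Cxcl14 was at 39.2 and 39.8 CPM in knockouts, with 1584 counts in the 2 libraries, against 7 counts in the 4 controls (log2 change 8.44 ± 0.48, adjusted p = 3.49e-06). At 6 weeks Cxcl14 was at 10.5, 15.6 and 11.8 CPM in knockouts, against 0.250, 0.0611, 0.467 and 0.439 CPM in controls (37.1-fold, log2 change 5.21 ± 0.42, adjusted p = 1.36e-05). The genotypes did not overlap at any age, and the 3 calls held with each library left out and under each other setting. At 2 and 6 weeks, however, Cxcl14 passed the filter only through the knockouts, so it could only be called higher. The size of the 6-week fold rests on 28 counts in the 4 controls. Its order of group means put the constitutive knockouts first at 2 weeks (39.5 CPM), with P0 (16.4 CPM) and 6 weeks (12.6 CPM) next, and no other group mean exceeded 3.64 CPM.

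After inducible deletion Cxcl14 was not called. At 6 weeks Cxcl14 was at 1.05, 1.22, 1.27 and 0.438 CPM in inducible knockouts, against 0.427, 0.257, 0.744 and 0.368 CPM in controls (log2 change 1.12 ± 0.51, adjusted p = 0.999). At 2 weeks the inducible knockouts held 20 counts over 4 libraries and the controls 5, and the gene was not tested. At P0 Cxcl14 was at 3.51, 1.49, 4.45 and 5.11 CPM in knockouts, against 1.87, 2.66 and 4.02 CPM in controls, and the genotypes overlapped (log2 change 0.39 ± 0.46, adjusted p = 0.624).

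Cxcl16 is a membrane-bound ligand of CXCR6 that is released by the proteases ADAM10 and ADAM17. In constitutive knockouts at P0 it was lower, at 9.71, 8.66 and 8.62 CPM, against 28.1, 21.2, 26.9 and 23.8 CPM in controls (3.58-fold lower, log2 change -1.84 ± 0.20, adjusted p = 6.75e-05). At 2 weeks Cxcl16 was higher, at 169 and 190 CPM in knockouts, against 26.0, 27.6, 29.9 and 28.0 CPM in controls (6.47-fold, log2 change 2.69 ± 0.13, adjusted p = 1.74e-06). At 6 weeks Cxcl16 was at 248, 407 and 261 CPM in knockouts, against 82.3, 60.5, 79.9 and 65.7 CPM in controls (4.09-fold, log2 change 2.03 ± 0.19, adjusted p = 4.98e-05). Knockouts and controls were apart at all 3 ages, and these calls held under each library left out and each other setting.

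Cxcl16 was not called in inducible knockouts at any age. At 2 weeks Cxcl16 was at 33.5, 34.6, 31.1 and 25.7 CPM in knockouts, against 28.1, 32.4, 29.8 and 26.8 CPM in controls (log2 change 0.03 ± 0.13, adjusted p = 0.952). At 6 weeks Cxcl16 was at 53.3, 55.5, 72.1 and 62.0 CPM in knockouts, against 58.7, 58.7, 63.3 and 80.5 CPM in controls (log2 change -0.13 ± 0.14, adjusted p = 0.999). At E16 it was at 6.70, 9.72 and 10.5 CPM in knockouts, against 22.0, 21.1, 11.0 and 18.3 CPM in controls, below all of them but without a call (log2 change -1.11 ± 0.34, adjusted p = 0.244). At P0 Cxcl16 was at 10.6, 12.8, 10.8 and 18.9 CPM in knockouts, against 20.3, 21.9 and 17.4 CPM in controls (log2 change -0.56 ± 0.25, adjusted p = 0.173), and without knockout 57 the change was -0.81 (adjusted p = 0.0393).

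Cxcl10, an interferon-induced ligand of CXCR3, was a low transcript in all groups. In constitutive knockouts at 2 weeks it was at 4.97 and 4.64 CPM, against 1.53, 1.5, 1.19 and 2.19 CPM in controls (3.01-fold, log2 change 1.59 ± 0.35, adjusted p = 0.0055). At 6 weeks Cxcl10 was at 10.4, 8.15 and 5.92 CPM in knockouts, against 0.750, 2.38, 2.37 and 2.24 CPM in controls (4.02-fold, log2 change 2.01 ± 0.38, adjusted p = 0.0043), and neither age had overlap. At P0 Cxcl10 was at 0.530, 0.341 and 1.48 CPM in knockouts, against 1.73, 1.01, 2.03 and 0.965 CPM in controls (log2 change -1.22 ± 0.62, adjusted p = 0.139), and it passed only without knockout 76. Inducible knockouts at E16 had 1.72, 0.613 and 0.837 CPM, against 3.85, 3.91, 2.56 and 4.98 CPM in controls, with no overlap (log2 change -2.02 ± 0.47, adjusted p = 0.157). It passed at E16 when the library labelled knockout 1 was left out (-2.42, adjusted p = 0.0362), under DESeq2 and in the fit over all groups. At later ages the inducible genotypes overlapped, with 1.17 to 4.60 CPM in knockouts and 1.43 to 1.68 CPM in controls at P0, 0.521 to 2.92 CPM in knockouts and 0.542 to 2.40 CPM in controls at 2 weeks, and 0.638 to 3.99 CPM in knockouts and 2.28 to 3.34 CPM in controls at 6 weeks.

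Counted over the inducible model, few of the 10 genes were called. At E16 edgeR called none of 10, and 0% of 17594 genes, while 2306 genes (13.1%) had an unadjusted p under 0.05, among them 3 of the 10, and DESeq2 called 345 genes higher and 336 lower, among them 1 of the 10. At P0 2 of 10 fell (Ccl4 and Ccl6) and none rose, where 10.4% of 17573 genes were called (3.56% lower). At 2 weeks the same 2 genes fell among 8 tested, where 2.25% of 13921 genes were called (1.13% lower). At 6 weeks none of 9 was called by edgeR or DESeq2, where 0.0633% of 14217 genes were called and 626 (4.4%) had an unadjusted p under 0.05, among them 2 of the 9. In CPM, 3 of 10 genes lay wholly below the controls at E16 (19.1% of genes did not overlap, 5.78% below), 2 of 10 at P0 (26.1%, 10.4% below), 2 of 8 at 2 weeks (8.58%, 2.72% below) and 0 of 9 at 6 weeks (3.29%). The inducible P0 knockouts also had lower microglia marker sums, 12786 to 16829 CPM against 24406 to 28991 CPM in controls, and monocyte sums of 3404 to 7240 CPM against 1173 to 5242 CPM. The part of these in the Ccl4 and Ccl6 values was not tested. At 2 weeks, where the microglia sums overlapped, none of the 15 microglia markers was called. The border macrophage sums at that age were 911 to 1176 CPM in inducible knockouts, against 686 to 845 CPM in controls, and 2 of 8 tested markers rose. Monocyte sums were 28.3 to 77.1 CPM in these knockouts, against 23.9 to 28.0 CPM in controls (0 of 9 tested called), and vascular sums were 37.5 to 42.9 CPM, against 55.3 to 75.7 CPM in controls (1 of 5 tested fell). Of 10 tested neutrophil markers 1 rose. The part of these values in the 2-week Ccl4 and Ccl6 differences was not tested. Inducible knockout 6 at 6 weeks had a neutrophil marker sum of 9251 CPM, against 1117 to 1649 CPM in the other knockouts and 1350 to 1712 CPM in controls, and without it none of the genes was called either. In the library labelled knockout 1 at E16 the erythroid marker sum was 13348 CPM and the neuron marker sum 3874 CPM, above all other E16 libraries.

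The 2 models were compared at matched ages by the difference of their knockout effects, fitted on the same libraries as the comparisons above. At 2 weeks the effect was higher in the constitutive model for 7 of 10 genes, where 31.2% of 15965 genes were called (16.6% higher). The differences in log2 change were 2.35 ± 0.54 for Ccl2, 2.26 ± 0.40 for Ccl6, 3.15 ± 0.65 for Ccl7, 1.75 ± 0.26 for Ccl12 and 2.66 ± 0.18 for Cxcl16 (adjusted p = 1.96e-08). They were 7.57 ± 1.68 for Cxcl2 and 6.55 ± 1.47 for Cxcl14, which rest on 2 and 20 counts in inducible knockouts. Both genes passed the filter here only through the constitutive knockouts, so they could only be called higher. The Cxcl2 difference was not called without inducible control 2 (adjusted p = 0.125). For Ccl3 and Ccl4 the differences were 0.23 ± 0.46 and 0.47 ± 0.50 (adjusted p = 0.754 and 0.528).

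At 6 weeks 5 of 10 genes had a higher effect in the constitutive model, where 4.95% of 15492 genes were called (2.54% higher). They were Ccl12 (1.74 ± 0.32), Cxcl16 (2.18 ± 0.24), Cxcl14 (4.11 ± 0.66), Cxcl10 (2.6 ± 0.64) and Cxcl2 (5.23 ± 1.30). The Cxcl10 and Cxcl2 differences were each lost without either of 2 single libraries, the library labelled constitutive knockout 380 among them for both (highest adjusted p = 0.0594 and 0.0838). The Cxcl2 difference was also lost when no filter on low counts was used. With the filter, Cxcl2 was kept at 6 weeks only through the constitutive knockouts, so it could only be called higher. At P0 4 genes had a lower effect in the constitutive model and 1 a higher one, where 30.9% of 19236 genes were called (14% higher, 16.9% lower). Lower were Ccl12 (-1.90 ± 0.40, adjusted p = 0.00273), Cxcl16 (-1.23 ± 0.32, adjusted p = 0.00871), Ccl4 (-1.91 ± 0.68, adjusted p = 0.0438) and Ccl7 (-1.98 ± 0.73, adjusted p = 0.0499). Higher was Cxcl14 (1.49 ± 0.52, adjusted p = 0.0397). The Ccl4 and Ccl7 calls were lost under each other scaling and without any of 8 and 10 single libraries of the 14, that of Cxcl14 was lost without any of 6, and the count of called genes was 3 with DESeq2 size factors or without TMM. With DESeq2 size factors the calls over all genes were 3019 higher and 2452 lower, in place of 2692 and 3254.

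Within the constitutive model the knockout effect at 6 weeks was higher than at P0 for 8 of 10 genes, where 19.6% of 19214 genes were called (14.5% higher). The largest differences were 3.84 ± 0.27 for Cxcl16, 3.35 ± 0.50 for Cxcl14, 3.27 ± 0.36 for Ccl12 and 3.20 ± 0.72 for Cxcl10. Ccl7 (2.59 ± 0.74), Ccl2 (2.33 ± 0.62), Ccl3 (2.22 ± 0.47) and Ccl4 (2.22 ± 0.63) also passed. The Ccl4 call was lost without constitutive knockout 73 at P0 or the library labelled knockout 380 (highest adjusted p = 0.0519), and the Ccl7 call without knockout 73 or the library labelled knockout 68 (highest adjusted p = 0.0612). Ccl6 (-0.68 ± 0.27, adjusted p = 0.0855) and Cxcl2 (2.99 ± 1.03, adjusted p = 0.0516) did not pass. With DESeq2 size factors the calls over all genes were 2015 higher and 1357 lower, in place of 2780 and 995, and 9 of the 10 genes were called. In the inducible model none of the 10 effects differed between 6 weeks and P0 by edgeR or DESeq2, where 2.56% of 18516 genes were called. An unadjusted p under 0.05 was reached by 1 of the 10 and by 17.3% of all genes.

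Ranked over the 14 groups, Ccl2, Ccl12 and Cxcl14 had their highest mean in constitutive knockouts at 2 weeks (98.3, 413 and 39.5 CPM) and Cxcl10 and Cxcl16 in constitutive knockouts at 6 weeks (8.14 and 305 CPM). Ccl6 and Cxcl2 were also highest at 2 weeks in constitutive knockouts (354 and 12.3 CPM), but the libraries of the next group overlapped with theirs. The same held for Ccl12, whose next group was the constitutive knockouts at 6 weeks. Ccl7 was highest in the inducible P0 knockouts (33.7 CPM). Ccl3 was highest in the inducible P0 controls (156 CPM) and lowest in the constitutive P0 knockouts (18.4 CPM). Ccl4 was highest in the 6-week controls of the constitutive model (61.1 CPM) and lowest in the constitutive P0 knockouts (4.17 CPM). Of 13 neighbouring pairs of groups in the order of means, the libraries overlapped in 13 for Ccl3, Ccl4 and Cxcl2, in 12 for Ccl2, Ccl6, Ccl7 and Cxcl10, in 11 for Ccl12 and Cxcl14 and in 9 for Cxcl16, so most neighbouring ranks are not separated. Ccl12 stood apart after its first 2 groups, the constitutive knockouts at 2 and 6 weeks, from the next, the inducible knockouts at 2 weeks (141 CPM).

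Likeness was measured as Pearson's r of log2 (CPM + 1) over the 14 group means, among 12877 genes, with no test. Ccl2 and Ccl12 were alike at 0.89, the first for Ccl2, and Ccl12 was most like Tnf (0.91), a cytokine of activated macrophages. Ccl3 was most like Prkch (0.93) and Ccl4 was most like Rcbtb2 (0.91) and Atf3 (0.90), a stress-response transcription factor. Ccl6 was most like Rab27a (0.85). Ccl7 was most like Cbr2 (0.97), a marker of border macrophages, and next like Dazap2 (0.96) and Rsad2 (0.94). Rsad2 is on the list of type I interferon genes used here. Cxcl2 had Klra17 (0.94), Dnah8 (0.94) and Il1b (0.93) as its nearest, and Cxcl10 had Apobec1 (0.92). Cxcl16 was most like Slamf9 (0.96), and Cxcl14 like Cpne2 (0.96), Nt5e (0.96) and Ace (0.96), which is on the list of monocyte markers used here. The groups share age and the composition of the sort, and these cannot be told apart in such values.

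Among 24 chemokine receptor genes, some rose and others fell in the constitutive model. In the knockouts 6 rose and 5 fell of 20 tested at P0, 6 rose and 3 fell of 18 at 2 weeks, and 3 rose and 2 fell of 17 at 6 weeks, where 41.6%, 42.1% and 12% of all tested genes were called. Their median log2 changes were 0.37, 0.11 and -0.28, against 0.04, 0.00 and -0.01 over all genes. Ccr1, which binds Ccl3 and Ccl6, rose to 1204 CPM in knockouts against 287 CPM in controls at 2 weeks, and to 947 against 58.1 CPM at 6 weeks. Ccr2, the receptor of Ccl2, Ccl7 and Ccl12 on monocytes, rose at P0 (186 CPM in knockouts, 41.4 CPM in controls). Among inducible knockouts 2 receptors fell at P0 (0 rose, of 21 tested), 2 rose and 2 fell at 2 weeks (of 16), and 1 fell at 6 weeks (of 17), where 10.4%, 2.25% and 0.0633% of all genes were called. Ccr1 was 490 CPM in inducible knockouts against 240 CPM in controls at 2 weeks. Cx3cr1, whose promoter drives Cre, fell in each of the 3 postnatal inducible comparisons, and at 6 weeks was the only receptor called (3562 CPM in knockouts, 7620 CPM in controls). At E16, where edgeR called none of the genes tested, Cx3cr1 was at 329 to 735 CPM in knockouts, against 2403 to 3567 CPM in controls, with no overlap.

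Of 25 other chemokine ligand genes most were too low to test. In constitutive knockouts 2 rose and 3 fell of 10 tested at P0, 3 rose and 1 fell of 9 at 2 weeks, and 2 rose and 2 fell of 9 at 6 weeks, beside 41.6%, 42.1% and 12% of all genes called at these ages. The medians were 0.35, 0.12 and 0.41 on the log2 scale. Pf4, a platelet and macrophage chemokine, was 675 CPM in constitutive knockouts and 2.43 CPM in controls at 2 weeks, and 123 and 2.66 CPM at 6 weeks. Ccl9 fell at P0 (138 CPM in knockouts, 249 CPM in controls) and at 6 weeks (48.6 CPM in knockouts, 221 CPM in controls). Ccl24 fell at P0 (10.5 CPM in knockouts, 62.7 CPM in controls), and Cxcl1, a ligand of CXCR2 like Cxcl2, had 76 counts in the 6-week knockouts and 0 in the controls. With 0 counts in the controls Cxcl1 could only be called higher. Among inducible knockouts 1 of these genes was called in all, Pf4 at 2 weeks (6.62 CPM in knockouts, 1.27 CPM in controls). Of the sheddases of Cxcl16, Adam17 was 104 CPM in constitutive knockouts against 280 CPM in controls at P0 and 308 against 538 CPM at 2 weeks, and Adam10 was 240 against 490 CPM and 486 against 879 CPM, and all 4 comparisons were called lower. Over the 6 shedding and processing genes, 2 rose and 3 fell at P0, 2 rose and 2 fell at 2 weeks, and 2 of 5 tested rose at 6 weeks, with median log2 changes of -0.54, 0.52 and 0.90.

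Lists of type I interferon, NF-kappaB, immediate early and inflammatory cytokine genes were counted in the same comparisons. Whether they share inputs with these ligands was not tested. Of type I interferon genes, 12 of 24 fell and none rose in constitutive knockouts at P0, 21 of 23 rose and none fell at 2 weeks, and 12 of 23 rose and none fell at 6 weeks, where 41.6%, 42.1% and 12% of all genes were called. Their median log2 changes were -0.70, 2.09 and 1.05, against 0.04, 0.00 and -0.01 over all genes. Zbp1, a sensor of nucleic acids, was 23.2 CPM in knockouts against 0.756 CPM in controls at 2 weeks. Of 20 NF-kappaB pathway and feedback genes, 3 rose and 9 fell at P0, 9 rose and 3 fell at 2 weeks, and 4 rose at 6 weeks, with medians of -0.43, 0.16 and 0.13. Nfkbiz, a coactivator in the pathway, was 65.2 CPM in knockouts against 26.1 CPM in controls at 2 weeks and 112 against 47 CPM at 6 weeks. Of 20 immediate early genes tested 1 rose and 10 fell at P0, 6 rose and 7 fell at 2 weeks, and 1 rose at 6 weeks, with medians of -0.61, 0.26 and 0.02. Of 9 inflammatory cytokines tested 2 rose and 4 fell at P0, 3 rose and 2 fell at 2 weeks, and 3 rose at 6 weeks, with medians of -0.63, -0.29 and -0.17. Il1b, made by activated myeloid cells, was 89.1 CPM in constitutive knockouts against 18.5 CPM in controls at P0, 40.5 against 2.47 CPM at 2 weeks and 28.1 against 6.16 CPM at 6 weeks. After inducible deletion each of these lists held at most 3 called genes in any comparison, where 0%, 10.4%, 2.25% and 0.0633% of all genes were called at E16, P0, 2 weeks and 6 weeks, and 0 of 23 interferon genes were called at 2 and at 6 weeks by edgeR. At P0 2 of 20 NF-kappaB genes rose and 1 fell, 1 of 20 immediate early and 1 of 10 cytokine genes fell, and 1 of 24 interferon genes rose. At 2 weeks 3 of 20 immediate early and 2 of 20 NF-kappaB genes fell and none rose, where 1.13% of all genes were called lower. None of 8 cytokine genes was called at that age.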

How the data were processed

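RNA-seq counts per gene came from 50 libraries of sorted microglia, each from a separately numbered animal, in 14 groups. The deposited table holds whole-number counts made by the authors with STAR 2.5.2b and featureCounts 1.5.1 on GRCm38, per the submitters' processing notes, and the authors' deposited CPM equals each count divided by its library total and multiplied by 1000000. The annotation release and the handling of reads that match several genes are not given in the sources used here. The authors' log2 table was not used. Of 48526 gene IDs 48058 matched a symbol of GENCODE vM21, and the other 468 held 0.058% of counts.

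Each comparison was fitted on the groups it concerns with edgeR 4.0.16 (quasi-likelihood test, filterByExpr, TMM, robust) in R 4.3.3, on all genes passing the filter, with Benjamini-Hochberg adjustment and a threshold of 0.05. ± after a log2 change is its standard error, the change divided by the square root of F. The fits were tested on simulated data first. DESeq2 1.42.0, its size factors, no filter, 1 fit over all 14 groups and leaving out each library were the alternatives, and library totals without TMM were added after the data had been seen. The members and gene lists were chosen with earlier results of these data known. All 10 members are named in full, and from the other lists at most 4 called genes per comparison, by adjusted p. Some genes of these lists are not reported here. Likeness used genes with a mean of at least 5 CPM in some group. Precision is limited by the spread between libraries of a group and by 2 to 4 animals a group. Counting error matters most for genes with few counts. Between libraries of the same group the chi-square of counts per gene was 9.98 to 214, above what counting error alone gives.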

Additional observations from a re-analysis of the deposited data

Results flagged for a closer look

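Of 90 checks of a gene in a group of 4 libraries, 7 held 1 library far from the other 3, where chance gives about 1 in 20. Ccl3 was at 118 CPM in inducible knockout 57 at P0 (others 33.2 to 47.6), at 39.2 CPM in inducible knockout 10 at 2 weeks (others 24.1 to 24.8), and at 128 CPM in inducible control 1 at 6 weeks (others 78.8 to 84.3). Ccl6 was at 134 CPM in inducible knockout 6 at 2 weeks (others 107 to 108). Cxcl2 was at 13.5 CPM in inducible knockout 57 at P0 (others 0.513 to 0.984) and at 0.439 CPM in constitutive control 81 at 2 weeks. Cxcl10 was at 0.750 CPM in 1 constitutive control at 6 weeks (others 2.24 to 2.38).

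Knockout effects that differed between models or ages are given as differences of log2 changes with an adjusted p under 0.05 by edgeR's quasi-likelihood test. Constitutive minus inducible at P0 gave -1.91 for Ccl4, -1.98 for Ccl7, -1.90 for Ccl12, -1.23 for Cxcl16 and 1.49 for Cxcl14. At 2 weeks it gave 2.35 for Ccl2, 2.26 for Ccl6, 3.15 for Ccl7, 1.75 for Ccl12, 7.57 for Cxcl2, 2.66 for Cxcl16 and 6.55 for Cxcl14. At 6 weeks it gave 1.74 for Ccl12, 5.23 for Cxcl2, 2.6 for Cxcl10, 2.18 for Cxcl16 and 4.11 for Cxcl14. Cxcl2 at both of these ages and Cxcl14 at 2 weeks passed the filter only through the constitutive knockouts, so they could only be called higher. The inducible knockouts held 2 counts of Cxcl2 and 20 of Cxcl14 at 2 weeks. In the constitutive model 6 weeks minus P0 gave 2.33 for Ccl2, 2.22 for Ccl3, 2.22 for Ccl4, 2.59 for Ccl7, 3.27 for Ccl12, 3.20 for Cxcl10, 3.84 for Cxcl16 and 3.35 for Cxcl14. The model and the tamoxifen exposure cannot be told apart in these differences.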

How the results depend on the processing

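Over all 17 comparisons, called changes of the 10 genes kept direction and call in 320 of the values recomputed under another setting and lost the call in 35. With 1 library left out they kept it in 616 and lost it in 67. No called change reversed. No paired analysis was possible because the numbers in the labels name different animals and the groups compared share fewer than 2 of them.

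Counts of the 10 genes called moved by over 1.5 times in these cases. For the inducible model at E16 (0 called) DESeq2 called 1, the fit over all 14 groups 3, and leaving out 1 library gave 0 to 1. At P0 (2) the fit over all groups called 4, and leaving out 1 library gave 0 to 5. At 2 weeks (2) DESeq2 size factors gave 1, library totals 1, no filter 4, DESeq2 4 and the fit over all groups 0, with 1 to 3 when 1 library was left out. For the inducible model's controls at P0 over E16 (0) no filter gave 2, DESeq2 5, and leaving out 1 library 0 to 2. For constitutive minus inducible at P0 (5) DESeq2 size factors gave 3, library totals 3, the fit over all groups 3 and no filter 2, with 2 to 6 when 1 library was left out, and at 6 weeks (5) leaving out 1 gave 3 to 6. For constitutive 6 weeks minus P0 (8) no filter gave 5. No filter and the fit over all groups change how many genes are tested; the other causes were not tested.

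Some uncalled changes near 0 reversed. Cxcl10 in the inducible model's controls at 2 weeks over P0 (0.02) was -0.0163 with DESeq2 size factors, -0.0188 with DESeq2, -0.016 in the fit over all groups and -0.20 with library totals. Ccl12 in the inducible model at 6 weeks (-0.01) was 0.0163 with library totals. With 1 library left out, the lowest and highest log2 changes that spanned 0 follow. In the inducible knockouts they were -0.47 and 0.16 for Ccl12 at E16, -0.59 and 0.47 for Ccl2, -0.14 and 0.32 for Ccl7 and -3.28 and 0.17 for Cxcl2 at P0. At 2 weeks they were -0.92 and 0.23 for Ccl7, -0.31 and 0.61 for Cxcl10 and -0.031 and 0.12 for Cxcl16, and at 6 weeks -0.39 and 0.037 for Ccl2 and -0.21 and 0.23 for Ccl12. In the inducible model's controls they were -0.066 and 0.27 for Cxcl16 at P0 over E16. At 2 weeks over P0 they were -0.55 and 0.34 for Ccl2, -0.30 and 0.11 for Ccl4, -0.22 and 0.10 for Ccl6, -0.16 and 0.19 for Ccl12 and -0.40 and 0.32 for Cxcl10, and at 6 over 2 weeks -0.024 and 0.77 for Ccl7. In the constitutive model's controls they were -0.78 and 0.010 for Ccl2 at 2 weeks over P0, and -0.051 and 0.17 for Ccl2 and -0.072 and 0.16 for Ccl12 at 6 over 2 weeks. For constitutive minus inducible they were -0.041 and 0.35 for Ccl6 at P0, -0.55 and 0.74 for Ccl3 and -0.54 and 1.07 for Ccl4 at 2 weeks, and -0.51 and 0.14 for Ccl3 at 6 weeks. For inducible 6 weeks minus P0 they were -0.57 and 0.50 for Ccl2 and -0.82 and 2.65 for Cxcl2.

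Without TMM the calls over all genes at inducible 2 weeks were 236 higher and 112 lower (155 and 158 with it). In the controls they were 2282 and 6506 (3578 and 5345) for inducible 2 weeks over P0, 1528 and 891 (1140 and 1260) for inducible 6 over 2 weeks, and 2619 and 7605 (4357 and 5984) for constitutive 2 weeks over P0. For constitutive minus inducible at P0 they were 3674 and 1488, and for constitutive 6 weeks minus P0 1765 and 1717. Depth limits Cxcl2, Cxcl10 and Cxcl14 most, with under 10 counts of Cxcl2 or Cxcl14 in several groups.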
